A study of Mus musculus with 47 samples.

Results

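Apoe, Clu, Apod, Abca1, Abcg1, Lpl, Lcat and Lrp1 are 8 genes of lipoprotein and lipid carriage, taken by symbol from a table of RNA-seq counts for 14221 genes. All 8 were in the table and had counts in each of the 47 libraries. The libraries came from hypothalami of male ob/ob mice, labelled as 11 weeks old, with 1 mouse per library. Mice of this strain lack functional leptin and become obese and hyperglycaemic. Each mouse had received a single intracerebroventricular (icv) injection of either 3 µg FGF1, a fibroblast growth factor, or vehicle, and the comparisons ask how the hypothalamic transcriptome differed 1, 5 and 42 days later. Day 1 had 10 FGF1-treated and 4 vehicle-treated mice. Day 5 had 9 FGF1-treated mice, 7 vehicle-treated mice labelled non-diabetic and 7 vehicle-treated mice labelled diabetic. Day 42 had 5 mice in each group. The vehicle-treated mice of Days 1 and 42 were labelled non-diabetic, and all vehicle-treated mice were pair-fed to FGF1-treated mice. The sample sheet of the authors puts both vehicle sets of Day 5 into 1 group, and they were kept apart here as labelled. The sheet of the authors, not the labels, carries 1 preparation code per day. Day and preparation therefore cannot be told apart, and each comparison of FGF1 with vehicle lay within 1 code.

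In the brain, cholesterol and phospholipid travel between cells on particles built around apolipoproteins that are largely secreted by astrocytes. Apoe is the main apolipoprotein of these particles, Clu (apolipoprotein J) is a secreted chaperone found on them, and Apod is a lipocalin that binds small lipids. Abca1 loads cholesterol and phospholipid onto lipid-poor apolipoprotein, and Abcg1 exports sterol to particles that already carry lipid. Lcat esterifies the cholesterol of the particles, Lpl hydrolyses their triglyceride, and Lrp1 is an endocytic receptor that takes up Apoe-bearing particles. Abca1, Abcg1, Apoe and Lpl are known targets of the liver X receptors, which sense oxysterols.

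Total counts per library ran from 1243280 to 47082403 in FGF1-treated and from 37281555 to 42887789 in vehicle-treated mice of Day 1. On Day 5 they ran from 7695346 to 30009258 with FGF1, from 8005968 to 9864890 in non-diabetic and from 7579695 to 12451642 in diabetic vehicle. Day 42 libraries held 19416026 to 43934003 counts with FGF1 and 25020821 to 42977914 with vehicle. FGF1 replicate 1 of Day 1 was the shallowest library, with 539 genes at 0 counts and 3 counts of Lpl. Lpl had between 3 and 445 counts per library and Clu between 1316 and 57266. Levels are given as CPM, counts per 1e6 counts after TMM scaling for library composition.

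All 9 genes listed as hypothalamic markers were in the table and above 0 in every group mean, with Pmch at a mean of 936 CPM in vehicle-treated mice of Day 1 and Avp at 226 CPM in non-diabetic vehicle of Day 5. Of 7 markers of thalamus, cortex and pituitary, 4 were in the table, with summed levels of 51.7 to 122 CPM on Day 1, 77.2 to 319 CPM on Day 5 and 93.2 to 854 CPM on Day 42. None of the lists had a gene at 0 in a group mean.

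Levels of different genes are compared per kilobase of exon, with the exons of all annotated transcripts of a gene merged. This length can exceed that of a single transcript, unevenly between genes, so the order of genes at similar levels may depend on it. By this measure Apoe was the most abundant of the 8 genes in vehicle-treated mice of Day 1, at 344 ± 99.6 CPM per kb (SD, n = 4). Clu followed at 207 ± 37.1 and Apod at 106 ± 18.4. Lrp1 followed at 18 ± 6.36 CPM per kb. Lcat (5.88 ± 0.838), Abcg1 (5.86 ± 1.34) and Abca1 (4.93 ± 1.37) lay close together, and Lpl was lowest at 0.585 ± 0.0585. In FGF1-treated mice of Day 1 the order of the upper pair was the other way round, with Clu at 367 ± 50.7 CPM per kb and Apoe at 256 ± 72.5 (n = 10). On Day 5, Apoe stood at 667 ± 18.3 CPM per kb in non-diabetic vehicle, 671 ± 30.4 in diabetic vehicle and 784 ± 63.3 with FGF1. Abca1 and Lcat ranked below Abcg1 in both vehicle groups of Day 5 (11.4 and 9.07 against 14.1 CPM per kb in non-diabetic vehicle) and above it with FGF1 (18.7 and 17.9 against 14.1). Apoe, Clu, Apod and Lrp1 kept ranks 1 to 4 on Day 42, and the 3 genes below them lay between 6.26 and 8.23 CPM per kb in vehicle. Levels of different days are set side by side only as measured, since day and preparation cannot be told apart.

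The 8 genes together made up 0.358% to 0.418% of all counts in FGF1-treated mice of Day 5, and 0.273% to 0.317% in the vehicle-treated mice of that day, with no overlap. Their share overlapped between treatments on Day 1 (0.207% to 0.316% with FGF1, 0.153% to 0.248% with vehicle) and on Day 42 (0.150% to 0.230% and 0.155% to 0.280%).

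On Day 1, FGF1-treated mice had more Clu and less Abca1 than the vehicle group, while Apoe and Lcat passed the adjusted p threshold with smaller differences. DEGs are genes with an adjusted p under 0.05 in the quasi-likelihood F test of edgeR (Benjamini-Hochberg over all 14221 genes) and an absolute log2 fold change (FC) above 0.5. By this measure 2 of the 8 genes were DEGs on Day 1, beside 2776 of all genes (19.5%). With the adjusted p alone, 4 of the 8 passed, beside 6396 of all genes (45.0%), and in 1 of the 8 the groups did not overlap, beside 2043 of all genes (14.4%). Of the 4 genes past the adjusted p, Apoe and Lcat did not pass it without vehicle replicate 1 or with Day 1 fitted alone. The median log2 FC of the 8 genes was 0.15. In tissue of mixed cells, fewer cells of a type and less RNA per cell cannot be told apart, here and below.

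On Day 5, Clu, Abca1 and Lcat were higher in every FGF1-treated mouse than in any vehicle-treated mouse of either set, and Apod was higher on average. Against non-diabetic vehicle 4 of the 8 genes were DEGs, all 4 higher, beside 219 of all genes (1.54%), of which 186 were higher (1.31%). The groups did not overlap in 3 of the 8, beside 559 of all genes (3.93%). Against diabetic vehicle 3 of the 8 were DEGs, all higher, beside 406 of all genes (2.85%) and 335 in that direction (2.36%), and 3 did not overlap, beside 865 of all genes (6.08%). The same FGF1-treated mice stand in both comparisons. The median log2 FC of the 8 genes was 0.41 against non-diabetic and 0.37 against diabetic vehicle, where that of all genes was -0.01 in each.

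Between the vehicle sets of Day 5, 0 of the 8 genes and 0 of all genes (0.0%) were DEGs with edgeR, with a smallest adjusted p of 0.787. An unadjusted p under 0.05 was reached by 0 of the 8 and by 193 of all genes, and DESeq2 and limma also called 0, with 164 and 135 genes at that unadjusted p. The smallest adjusted p with DESeq2 was 0.0631. On Day 42, 0 of the 8 and 0 of all genes (0.0%) were DEGs with edgeR, with 1 of the 8 (Lpl) and 776 of all genes at an unadjusted p under 0.05, and 0 with DESeq2 (781 genes) and limma (673 genes). Without FGF1 replicate 1 of Day 42 the count over all genes was 31 and without FGF1 replicate 2 it was 1, with 0 of the 8 genes in either. Groups of Day 42 did not overlap in 38 of all genes (0.267%) and in 0 of the 8.

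**Figure D1:**
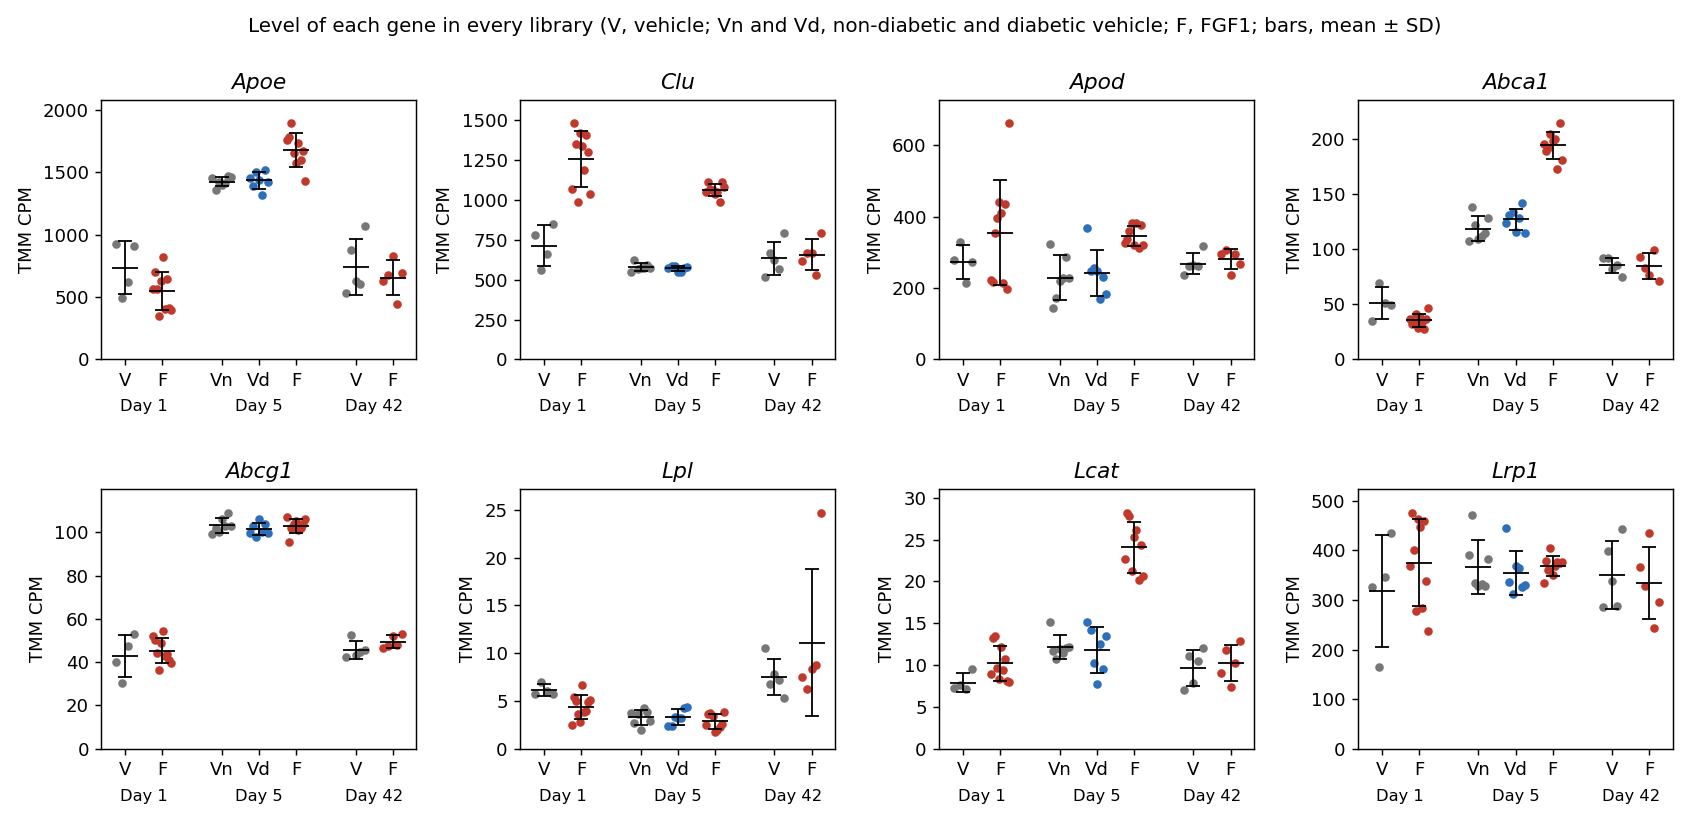
Level of each of the 8 genes in every library, in TMM-scaled CPM on a linear axis from 0, with 1 point per mouse and bars for the mean ± SD. Clu, Abca1 and Lcat of the 9 FGF1-treated mice of Day 5 exceeded all vehicle values of that day, and 1 FGF1-treated mouse of Day 42 had 24.7 CPM of Lpl.

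Clu showed the difference with the smallest adjusted p of the 8 genes on both Day 1 and Day 5. In vehicle-treated mice of Day 1 it stood at 780, 559, 664 and 848 CPM, and in the 10 FGF1-treated mice between 989 and 1480 with a median of 1320. All 10 FGF1-treated mice lay above the highest vehicle-treated mouse, and the log2 FC was 0.82 ± 0.10 (SE), a fold of 1.77 (edgeR, adjusted p = 1.86e-09). On Day 5 it ran from 547 to 622 CPM in non-diabetic vehicle (median 573), from 546 to 587 in diabetic vehicle (median 576) and from 989 to 1110 with FGF1 (median 1060). The gap between the sets was wider than the whole range of any of them, with a log2 FC of 0.88 ± 0.08 against non-diabetic vehicle (edgeR, adjusted p = 7.5e-11) and 0.89 ± 0.08 against diabetic vehicle (edgeR, adjusted p = 3.15e-11). On Day 42 the vehicle-treated mice had 520, 666, 626, 569 and 790 CPM and the FGF1-treated mice 616, 669, 669, 530 and 795. These groups overlapped nearly fully, at a log2 FC of 0.05 ± 0.10. The FGF1 effect on Clu was lower on Day 42 than on Day 1 by a tested difference of -0.77 ± 0.14 (edgeR, adjusted p = 2.8e-05), and lower than on Day 5 by -0.83 ± 0.13 (edgeR, adjusted p = 0.000109). Here and below, differences between days take the Day 5 effect against non-diabetic vehicle.

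Apoe went the other way on Day 1. Vehicle-treated mice had 922, 491, 622 and 905 CPM, and FGF1-treated mice ran from 349 to 822 with a median of 561. The ranges overlapped widely, 9 of the 10 FGF1 values were under the vehicle median of 763, and the log2 FC of -0.42 ± 0.16 passed the adjusted p (edgeR, 0.0278) without reaching a fold of 0.5 on the log2 scale. It depended on single vehicle-treated mice and on the fit. Without replicate 2 it was -0.57 and a DEG (edgeR, adjusted p = 0.00614), and without replicate 1 or 4 it was -0.30 or -0.31 (edgeR, adjusted p = 0.177 and 0.151). With Day 1 fitted alone it was -0.42 (edgeR, adjusted p = 0.125), and with limma-voom -0.33 (adjusted p = 0.131). On Day 5, Apoe ran from 1360 to 1470 CPM in non-diabetic vehicle, from 1320 to 1520 in diabetic vehicle and from 1430 to 1890 with FGF1 (medians 1420, 1440 and 1670). The FGF1 values exceeded all vehicle values of both sets in 8 of 9 mice, but the log2 FC of 0.23 ± 0.14 did not pass in the fit over all days (edgeR, adjusted p = 0.435 and 0.366). With Day 5 fitted alone the log2 FC was 0.24 ± 0.04 against non-diabetic vehicle (edgeR, adjusted p = 0.00018), under the threshold on the fold. With the GC covariate or GC curve described below, Apoe was at 0.23 and 0.25 (edgeR, adjusted p = 0.0125 and 0.00944), also under that threshold. Against diabetic vehicle it passed the adjusted p in the same fits. On Day 42, vehicle-treated mice had 529, 877, 627, 606 and 1070 CPM and FGF1-treated mice 631, 676, 830, 443 and 692, at a log2 FC of -0.18 ± 0.17. The difference between the FGF1 effects of Days 5 and 1 was 0.66 (edgeR, adjusted p = 0.0176). It did not pass without vehicle replicate 1 or 4 of Day 1 (edgeR, adjusted p = 0.0761 and 0.0627) or with limma-voom (adjusted p = 0.184).

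Apod varied most among FGF1-treated mice of Day 1. Vehicle-treated mice had 278, 329, 213 and 273 CPM that day, and the FGF1-treated mice ran from 197 to 661 with a median of 375. FGF1 replicate 10, at 661 CPM, was the highest of all 47 libraries, and the log2 FC of 0.38 ± 0.21 did not pass (edgeR, adjusted p = 0.127). On Day 5, Apod ran from 144 to 324 CPM in non-diabetic vehicle, from 170 to 367 in diabetic vehicle and from 312 to 382 with FGF1 (medians 229, 247 and 336). Each of the 9 FGF1-treated mice lay above the median of either vehicle set, while 6 exceeded all non-diabetic and 3 all diabetic vehicle values. The log2 FC was 0.60 ± 0.18 against non-diabetic vehicle (edgeR, adjusted p = 0.0377) and 0.51 ± 0.18 against diabetic vehicle (edgeR, adjusted p = 0.0566), so Apod was a DEG in the former alone, and the difference between these contrasts, 0.08 ± 0.19, did not pass (edgeR, adjusted p = 1). Without the 2 deepest FGF1 libraries of Day 5, the value against non-diabetic vehicle was 0.59 (edgeR, adjusted p = 0.0776). Against diabetic vehicle Apod passed with limma-voom (0.59, adjusted p = 0.0403), with at least 10 counts in every library (0.54, edgeR, adjusted p = 0.0454), with Day 5 fitted alone (0.52, edgeR, adjusted p = 0.00372) and with the GC covariate described below (0.51, edgeR, adjusted p = 0.0321). On Day 42 Apod ran from 237 to 317 CPM in vehicle and from 237 to 307 with FGF1.

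Apod went together with markers of meningeal fibroblasts from library to library. After the group means were subtracted, log2 Apod and the log2 summed CPM of the 6 markers had r = 0.76 and rho = 0.72 over the 47 libraries, and r = 0.75 without the 2 libraries farthest from the median, as a description within groups that share a preparation. In FGF1 replicates 8 and 10 of Day 1 the 6 markers summed to 431 and 410 CPM, with Apod at 435 and 661. In FGF1 replicates 1 and 9 they summed to 59.5 and 106 CPM, with Apod at 222 and 197. Across groups the sum ran from 44.3 to 115 CPM in non-diabetic vehicle of Day 5, from 50.7 to 117 in diabetic vehicle and from 65.0 to 218 with FGF1, with Dcn the most abundant of the 6 and none at 0. Of the 6 markers, 3 were higher and 1 lower on Day 1, and 2 were higher on Day 5 against non-diabetic and 0 against diabetic vehicle. Among all genes, DEGs made up 19.5%, 1.54% and 2.85% in these comparisons. The fibroblast markers were not tested as a set. Their part in the Apod values was not tested. This pair had the largest r of 128 computed between the 8 genes and 16 marker lists. Apod also had r = 0.54 and rho = 0.5 with monocyte and T cell markers, and r = 0.69 without the 2 farthest libraries. With oligodendrocyte markers it had r = 0.53 and rho = 0.42, and with pericyte and smooth muscle markers r = 0.53 and rho = 0.45. Other large values were those of tanycyte markers with Clu (r = -0.74, rho = -0.54), Lrp1 (r = -0.71, rho = -0.49), Apoe (r = -0.69, rho = -0.63) and Abca1 (r = 0.64, rho = 0.55), and the tanycyte sum itself went against the GC slope described below (r = -0.82, rho = -0.66). What joins these was not tested.

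Of the exporters, Abca1 was lower with FGF1 on Day 1 and higher on Day 5. Vehicle-treated mice of Day 1 had 34.6, 69.2, 51.2 and 49.4 CPM, and FGF1-treated mice ran from 28.0 to 47 with a median of 35.2. The vehicle median exceeded each of the 10 FGF1 values, and 5 of these were under the lowest vehicle value, at a log2 FC of -0.52 ± 0.11 (edgeR, adjusted p = 8.85e-05). Without vehicle replicate 2, which had the 69.2 CPM, the value was -0.34, which passed the adjusted p (edgeR, 0.0101) and not the fold threshold. On Day 5, Abca1 ran from 107 to 138 CPM in non-diabetic vehicle, from 115 to 142 in diabetic vehicle and from 173 to 214 with FGF1 (medians 115, 128 and 195). The FGF1-treated mice did not overlap with either set, at a log2 FC of 0.71 ± 0.09 (edgeR, adjusted p = 5.71e-07) against non-diabetic and 0.61 ± 0.09 (edgeR, adjusted p = 6.99e-06) against diabetic vehicle. On Day 42, vehicle-treated mice had 91.9, 91.6, 82.4, 85.6 and 74.9 CPM and FGF1-treated mice 93.3, 83.3, 76.3, 99.1 and 70.8, at a log2 FC of -0.01 ± 0.11. The FGF1 effect on Abca1 differed between Days 5 and 1 by 1.23 ± 0.14 (edgeR, adjusted p = 2.51e-09), the largest difference between days of any of the 8 genes. Its difference from Day 5 to Day 42 was -0.72 (edgeR, adjusted p = 0.0056). From Day 1 to Day 42 the effect on Abca1 differed by 0.51 (edgeR, adjusted p = 0.0134), and by 0.34 without vehicle replicate 2 of Day 1 (edgeR, adjusted p = 0.105). It also fell under the fold threshold without FGF1 replicate 1 (0.47) or 4 (0.45) or vehicle replicate 3 (0.50) or 5 (0.47) of Day 42, and with the GC covariate (0.48) or GC curve (0.47).

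Abcg1 gave no such difference. It stood at 40.1, 30.4, 47.7 and 52.9 CPM in vehicle-treated mice of Day 1 and between 36.4 and 54.2 with FGF1. On Day 5 it ran from 99.4 to 109 CPM in non-diabetic vehicle, from 98.0 to 106 in diabetic vehicle and from 95.6 to 107 with FGF1, and the SD of each group was about 3% of its mean (3.06%, 2.91% and 3.27%). Its log2 FC was 0.07 ± 0.08 on Day 1, -0.00 ± 0.07 and 0.02 ± 0.07 on Day 5, and 0.12 ± 0.09 on Day 42, with none past the adjusted p threshold of edgeR. On Day 5 the FGF1 and vehicle ranges of Abcg1 overlapped almost fully, with 1 FGF1-treated mouse, at 95.6 CPM, below all vehicle-treated mice.

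Lcat had the largest log2 FC of the 8 genes on Day 5, against either vehicle set. Non-diabetic vehicle ran from 10.7 to 15.1 CPM (median 11.9), diabetic vehicle from 7.72 to 15.1 (median 12.5) and FGF1 from 20.2 to 28.2 (median 24.3). Each FGF1-treated mouse lay above all vehicle-treated mice, at a log2 FC of 0.98 ± 0.14, a fold of 1.97, against non-diabetic vehicle (edgeR, adjusted p = 1.53e-06) and 1.02 ± 0.13, a fold of 2.02, against diabetic vehicle (edgeR, adjusted p = 4.65e-07). On Day 1 the vehicle-treated mice had 7.31, 7.59, 7.10 and 9.55 CPM and the FGF1-treated mice 7.95 to 13.5 with a median of 9.58. All 10 lay above the vehicle median and 5 above every vehicle-treated mouse, at a log2 FC of 0.39 ± 0.15 (edgeR, adjusted p = 0.0348). At a log2 FC of 0.34 to 0.39 the adjusted p did not pass with DESeq2 (0.0556), its size factors in edgeR (0.0616), Day 1 fitted alone (0.0708) or without vehicle replicate 1, 2 or 3 (0.0931, 0.0838 and 0.104). With limma-voom and with the GC curve described below the log2 FC itself was smaller, at 0.24 (adjusted p = 0.121) and 0.25 (edgeR, adjusted p = 0.113). On Day 42 Lcat had 7.07, 11.1, 7.82, 10.5 and 12.0 CPM in vehicle-treated and 9.05, 11.8, 7.36, 10.2 and 12.9 in FGF1-treated mice. The FGF1 effect on Lcat differed by 0.59 between Days 5 and 1 (edgeR, adjusted p = 0.0233) and by -0.91 between Days 42 and 5 (edgeR, adjusted p = 0.0177). The former did not pass without vehicle replicate 4 of Day 1 (edgeR, adjusted p = 0.0755).

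Lpl was the least abundant of the 8 genes per kilobase in every group, and the edgeR fit over all days called it in no comparison of FGF1 with vehicle. Vehicle-treated mice of Day 1 had 5.71, 7.00, 6.10 and 5.69 CPM, and FGF1-treated mice ran from 2.44, in the shallowest library, to 6.73 with a median of 4.45. Of the 10 FGF1-treated mice, 9 lay below every vehicle-treated mouse, at a log2 FC of -0.43 ± 0.23 (edgeR, adjusted p = 0.123), and limma-voom on quantile-normalized values called it at -0.50 (adjusted p = 0.0253). On Day 5 it ran from 1.75 to 4.42 CPM over the 3 groups, from 14 to 109 counts per library. On Day 42, vehicle-treated mice had 10.5, 6.80, 7.84, 7.15 and 5.36 CPM and FGF1-treated mice 7.47, 6.25, 8.37, 8.81 and 24.7. The log2 FC of 0.55 ± 0.24 (edgeR, unadjusted p = 0.0292, adjusted p = 0.848) was 0.04 without FGF1 replicate 5. The difference between the FGF1 effects of Days 42 and 1, 0.98 (edgeR, adjusted p = 0.0258), was 0.47 without that library (edgeR, adjusted p = 0.199), and lost its call without vehicle replicate 5 of Day 42 or replicate 2 of Day 1 (edgeR, adjusted p = 0.0522 and 0.0575).

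The Day 42 library with 24.7 CPM of Lpl also stood apart in several marker lists, most of all in choroid plexus. The 3 of 6 listed markers in the table (Clic6, Kl and Kcnj13) summed to 185 CPM there and to between 21.1 and 43.3 CPM in the other 9 libraries of Day 42, with none at 0. Ttr, Folr1 and Aqp1 were not in the table used here. The same library had the lowest sum of hypothalamic markers of Day 42 (437 CPM, 731 to 1290 in the others) and the highest sums of thalamus, cortex and pituitary (854 CPM) and neuronal markers (5390 CPM). Lpl and the choroid plexus sum had r = 0.65 and rho = 0.46 over 47 libraries after group means were subtracted, and r = 0.39 without the 2 libraries farthest from the median. Of the 3 choroid plexus markers, 2 were lower on Day 1, beside 19.5% of all genes in either direction. On Days 5 and 42, 0 of the 3 passed both thresholds. The part of any of these markers in the Lpl values was not tested.

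Lrp1, the receptor, was a DEG in no comparison. It had 326, 165, 347 and 435 CPM in vehicle-treated mice of Day 1 and 237 to 476 with FGF1 (median 384), at a log2 FC of 0.24 ± 0.16 (edgeR, adjusted p = 0.238). It passed the adjusted p, under the fold threshold, without vehicle replicate 4 (0.43, edgeR, adjusted p = 0.0452) and with the GC covariate (0.26, edgeR, adjusted p = 0.0177). On Day 5 the means were 367 ± 53.4 CPM (SD, n = 7) in non-diabetic vehicle, 355 ± 45.1 (n = 7) in diabetic vehicle and 370 ± 20.2 (n = 9) with FGF1. Day 42 means were 351 ± 68.7 and 334 ± 72.5 CPM (n = 5 each).

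**Figure D2:**
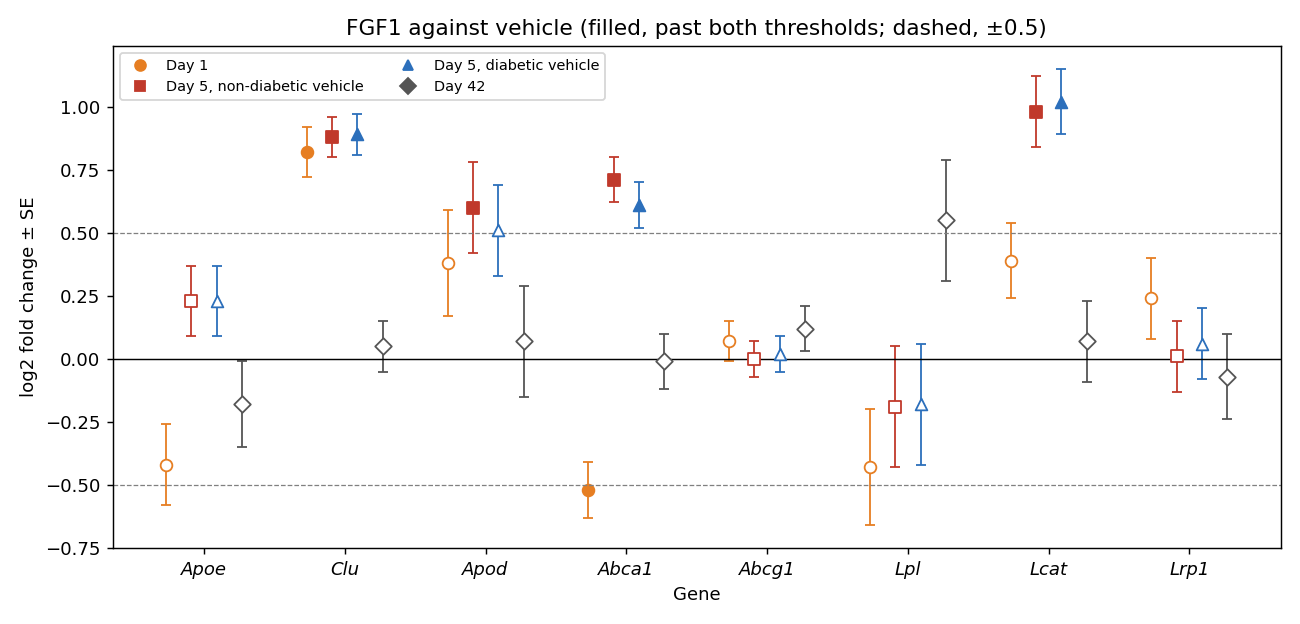
Log2 FC ± SE of FGF1 against vehicle for the 8 genes on Day 1, on Day 5 against each vehicle set and on Day 42, with filled symbols for DEGs and dashed lines at 0.5 either side of 0. Clu was called on Days 1 and 5, Abca1 lay at -0.52 on Day 1 and at 0.71 and 0.61 on Day 5, and no symbol of Day 42 is filled.

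Tested as a difference between days, the FGF1 effect of 3 of the 8 genes (Apoe, Abca1 and Lcat) differed between Days 5 and 1, beside 2247 of all genes (15.8%). For Days 42 and 1 this was so in 3 of the 8 (Clu, Abca1 and Lpl), beside 2332 of all genes (16.4%). With the GC curve taken out Apoe was called there (0.51, edgeR, adjusted p = 0.000399, against 0.24 without it) and Abca1 was not. For Days 42 and 5 it was 3 of the 8 (Clu, Abca1 and Lcat), all with a lower effect on Day 42, beside 102 of all genes (0.717%). That count over all genes was 56 without FGF1 replicate 5 of Day 42, 65 without the 2 deepest Day 5 libraries, 158 with the GC curve and 194 with the GC covariate, and the 3 genes were called in each. These differences share the contrasts of their days and are not independent of one another.

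Libraries of 1 group differed in a way that followed the GC content of transcripts. For each library, the deviation of each gene from its group mean on the log2 scale was regressed on the GC percent of the gene, and the slope is given per 10 points of GC. Slopes ran from -0.38 to 0.24 in vehicle-treated and from -0.37 to 0.25 in FGF1-treated mice of Day 1, from -0.30 to 0.46 and -0.26 to 0.16 on Day 42, and from -0.06 to 0.05 over the 3 groups of Day 5. Apoe (60.6% GC) followed the slope with r = 0.90 and rho = 0.87 over 47 libraries, and with r = 0.88 without the 2 farthest libraries. Clu (53.8% GC) had r = 0.90 and rho = 0.82, and Lrp1 (55.5% GC) r = 0.82 and rho = 0.66. Abca1 (47.5% GC) went against the slope, with r = -0.67 and rho = -0.57, while Apod (r = -0.04, rho = 0.18) and Lpl (r = -0.07, rho = 0.02) did not follow it. Abcg1 (r = 0.60, rho = 0.45) and Lcat (r = 0.44, rho = 0.47) lay between.

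Vehicle replicate 2 of Day 1, which had the lowest Apoe and the highest Abca1 of its group, had the slope of -0.38, and vehicle replicate 5 of Day 42, with 1070 CPM of Apoe, the slope of 0.46. Relative to the mean of the day, slopes averaged 0.04 in FGF1-treated and -0.11 in vehicle-treated mice of Day 1. As alternatives, the slope entered the fit as a covariate or a GC curve was taken out of each library. The covariate was the slope relative to group means, so it addressed spread within groups. It could not adjust for a GC difference between groups such as that of Day 1, which the curve could. With the curve taken out, the Day 1 log2 FC of Apoe was -0.63 ± 0.08 and a DEG (edgeR, adjusted p = 1.62e-09), and that of Abca1 was -0.48 ± 0.09, past the adjusted p (edgeR, 8.08e-06) and under the fold threshold. The Day 5 values of Clu, Abca1 and Lcat against non-diabetic vehicle in that fit were 0.87, 0.69 and 0.97, close to those without it.

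**Figure D3:**
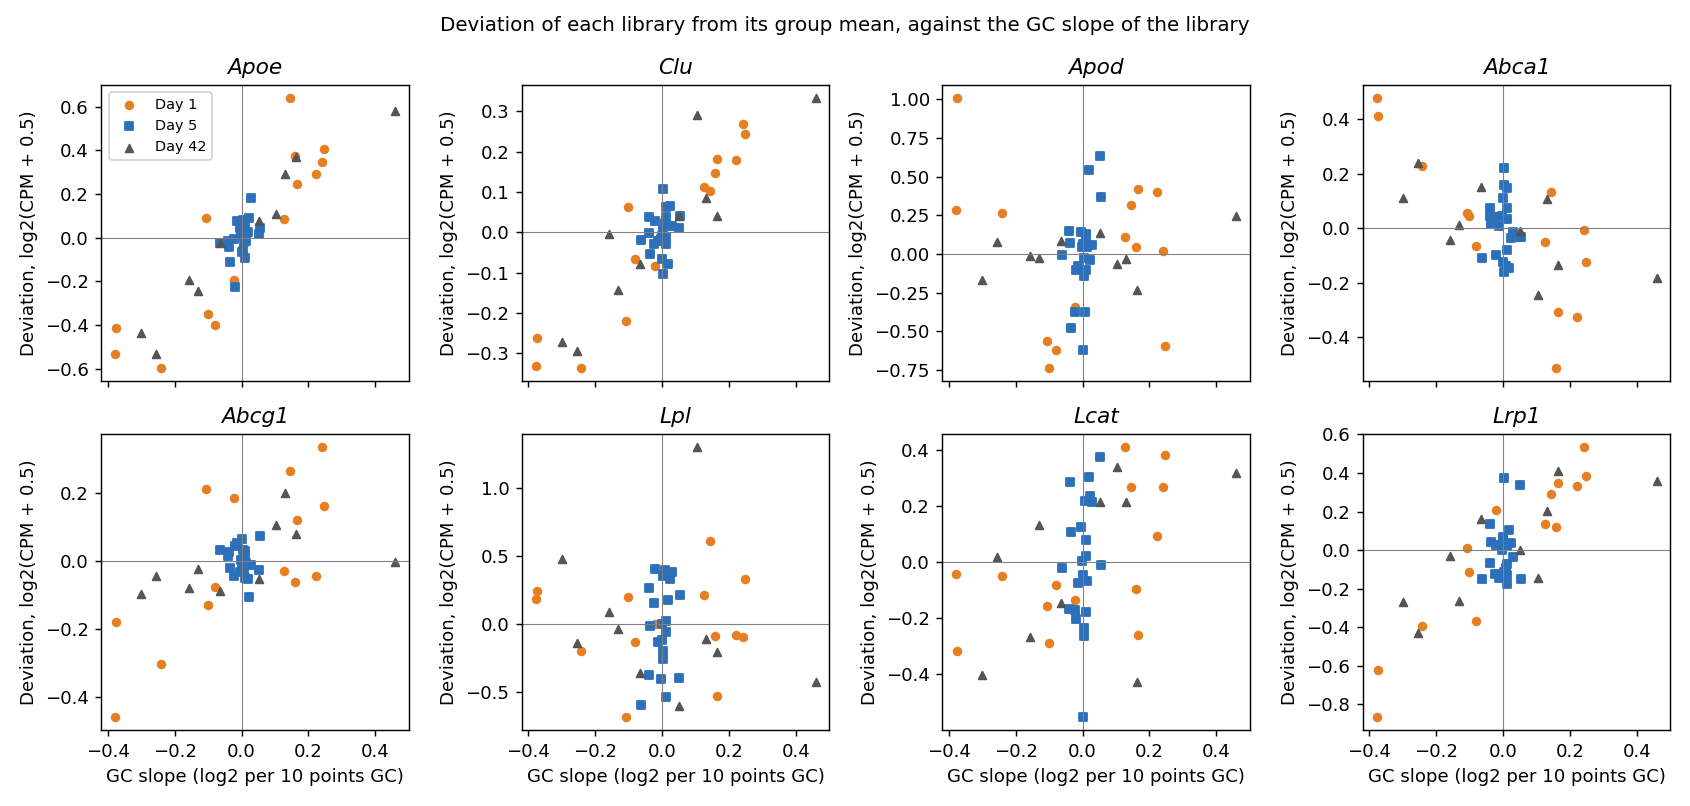
Deviation of each library from its group mean in log2(CPM + 0.5), against the GC slope of the library in log2 units per 10 points of GC, with 1 point per library and the days in different symbols. Apoe and Clu rise along the slope (r = 0.90 each), Abca1 falls (r = -0.67), and the libraries of Day 5 lie between slopes of -0.06 and 0.05.

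Between the 8 genes, deviations from the group mean went together most for Apoe and Clu (r = 0.79, rho = 0.73, 47 libraries), Apoe and Lrp1 (r = 0.77, rho = 0.61) and Clu and Lrp1 (r = 0.72, rho = 0.57), 3 genes that each followed the GC slope. Clu and Abca1 went in opposite directions (r = -0.61, rho = -0.43). Apod had an r between -0.21 and 0.13 with each of the other 7 genes.

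Some cell type markers differed with FGF1 on the same days, where DEGs made up 19.5% of all genes on Day 1. On Day 5 they made up 1.54% against non-diabetic and 2.85% against diabetic vehicle. All 4 reactive astrocyte markers in the table (Gfap, Vim, Serpina3n and Cd44) were higher on Day 1 and on Day 5 against either vehicle set, and Lcn2 and Steap4 were not in the table used here. Their summed level went from 402 ± 37.4 to 3500 ± 430 CPM on Day 1, stood at 319 ± 56.2, 317 ± 41.2 and 732 ± 101 CPM in non-diabetic vehicle, diabetic vehicle and FGF1 on Day 5, and at 302 ± 110 and 280 ± 40.7 CPM on Day 42 (SD). Gfap, the most abundant of them, was higher by 2.81 ± 0.19 on Day 1 (log2 FC, edgeR, adjusted p = 1.08e-16) and by 1.29 ± 0.14 on Day 5 (edgeR, adjusted p = 1.16e-08). Within groups, Clu and this sum had r = 0.30 and rho = 0.38, and Abca1 and Lcat r = -0.09 and 0.03 with rho = -0.13 and 0.12. Of 8 general astrocyte markers, 3 were lower on Day 1 and 1 (Aqp4, at 0.98 ± 0.14) was higher on Day 5. The part of reactive astrocytes in the Clu, Abca1 and Lcat values was not tested.

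On Day 1 the test called 5 of 6 oligodendrocyte markers lower with FGF1, and on Day 5 the test called 2 of them higher against either vehicle set, with summed levels of 4550 ± 819 and 2680 ± 595 CPM on Day 1 and 4840 ± 580, 4530 ± 641 and 6440 ± 295 CPM on Day 5. Abca1 had the same directions, and its deviations within groups had r = 0.28 and rho = 0.22 with this sum. The general astrocyte sum also had these directions, at 4630 ± 295 and 3540 ± 232 CPM on Day 1. It stood at 4650 ± 99.9, 4630 ± 211 and 5200 ± 185 CPM on Day 5. Abca1 had r = 0.44 and rho = 0.34 with the astrocyte sum, and r = 0.45 and rho = 0.37 with endothelial markers. Lcat and the oligodendrocyte sum had r = 0.39 and rho = 0.39. For Lcat the largest r over the 16 lists was with thalamus, cortex and pituitary markers (r = 0.49, rho = 0.44). Hypothalamic markers went the other way (r = -0.36, rho = -0.37). In the list for oligodendrocyte precursors, 1 of 4 genes was lower on Day 1 and 2 (Gpr17 and Bmp4) were higher on Day 5. Their part was not tested either.

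Of 8 microglia markers, 5 were higher and 1 lower on Day 1. On Day 5, 0 passed both thresholds and 4 the adjusted p alone against non-diabetic vehicle, and 6 were higher against diabetic vehicle. Non-diabetic vehicle replicate 2 of Day 5 had a microglia sum of 377 CPM, and the other mice of that set had 230 to 253. Of 3 monocyte and T cell markers in the table, 3 were higher on Day 1 and 2 on Day 5 against either set. Ependymal markers were lower on Day 1 in 3 of 5. On Day 5, 0 of the 5 passed both thresholds against non-diabetic vehicle and 1 was higher against diabetic vehicle. Tanycyte markers gave 1 higher and 1 lower of 5 on Day 1, and pericyte and smooth muscle markers 1 higher and 1 lower of 5. Endothelial markers gave 1 higher of 5, hypothalamic markers 1 higher and 1 lower of 9, and thalamus, cortex and pituitary markers 1 higher of 4. These counts stand beside 19.5% of all genes in either direction on Day 1, and each of these lists gave 0 on Day 5. Neuronal (6) and blood (4) markers gave 0 past both thresholds on both days. On Day 1, 4 of the 6 neuronal markers passed the adjusted p alone. The sum of all 6 ran from 3310 to 4070 CPM in vehicle and from 2460 to 3240 with FGF1 that day. On Day 42 and between the vehicle sets, 0 markers of any list passed both thresholds in the edgeR fit.

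Other genes of lipid carriage were read from 6 lists, pooled to 123 different entries, of which 106 genes were in the table. A gene on more than 1 list counts once here, so the lists below add up to more. On Day 1, 15 were higher and 10 lower (23.6%, where 19.5% of all genes were DEGs). On Day 5 against non-diabetic vehicle 2 were higher and 1 lower (2.83%, beside 1.54%), and against diabetic vehicle 5 were higher and 2 lower (6.60%, beside 2.85%). The lists gave 0 on Day 42 and between the vehicle sets, as did all genes. Their median log2 FC was -0.09 on Day 1 and 0.03 and 0.05 on Day 5.

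Of 18 lipoprotein receptors and their adaptors, 4 were higher and 0 lower on Day 1, beside 19.5% of all genes in either direction, and 11 did not pass the adjusted p, with a median log2 FC of 0.06. Lrp10 went from 24.7 ± 4.65 to 47.9 ± 9.67 CPM, a log2 FC of 0.97 ± 0.13 (edgeR, adjusted p = 5.42e-08), with no overlap between the 10 FGF1 and 4 vehicle values. Lrp5, a Wnt co-receptor of the same family, had 1.01 ± 0.16 (edgeR, adjusted p = 1.04e-06). On Day 5, 0 of 18 passed both thresholds against either set.

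Among the other carriers, 14 of 22 were in the table, with 2 higher and 1 lower on Day 1, beside 19.5% of all genes in either direction. Fabp7, the fatty acid binding protein of radial glia and astrocytes, was higher on Day 1 (0.62 ± 0.13, edgeR, adjusted p = 0.000125) and on Day 5 against non-diabetic (0.58 ± 0.12, adjusted p = 0.00113) and diabetic vehicle (0.81 ± 0.12, adjusted p = 4.06e-06), the 1 gene of this list past both thresholds on Day 5. Rbp4 was lower on Day 1 at -0.94 ± 0.19 (edgeR, adjusted p = 6.55e-05).

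Of 16 other lipid transporters of the ABC family, 0 were higher and 3 lower on Day 1, beside 19.5% of all genes in either direction. The 3 were Abcb4 (-0.70 ± 0.12, edgeR, adjusted p = 2.39e-06), Abca8a (-0.91 ± 0.21, adjusted p = 0.000433) and Abca6 (-0.78 ± 0.18, adjusted p = 0.00056). On Day 5, 1 was higher against non-diabetic and 2 against diabetic vehicle. Abca9 went from 18.7 ± 3.56 CPM in non-diabetic vehicle to 29.2 ± 5.92 with FGF1 (0.64 ± 0.17, edgeR, adjusted p = 0.0144), and Abca8a, lower on Day 1, was higher on Day 5 against diabetic vehicle (0.67 ± 0.19, edgeR, adjusted p = 0.0147). The median log2 FC of this list was -0.22 on Day 1.

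Of 17 genes around the liver X receptors, 3 were higher and 1 lower on Day 1, beside 19.5% of all genes in either direction, with a median log2 FC of -0.01. Nr1h3, which encodes liver X receptor alpha, went from 2.16 ± 0.431 to 3.72 ± 0.714 CPM with no overlap (0.74 ± 0.17, edgeR, adjusted p = 0.000473), and Ppard was higher by 0.72 ± 0.19. Smpdl3a, a known target of these receptors, was lower at -0.95 ± 0.11 (edgeR, adjusted p = 2.21e-09). On Day 5, both thresholds were passed by 0 of 17 against non-diabetic vehicle and by Nr1h3 alone against diabetic vehicle (0.51 ± 0.16, edgeR, adjusted p = 0.0304).

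Of 23 lipases, their partners and sterol-handling genes in the table, 3 were higher and 1 lower on Day 1, beside 19.5% of all genes in either direction. Lipa, the lysosomal acid lipase, went from 31.6 ± 2.02 to 46.8 ± 4.62 CPM (0.58 ± 0.08, edgeR, adjusted p = 7.33e-08), and the Lpl inhibitor Angptl4 and the maturation factor Lmf2 were higher by 0.75 ± 0.26 and 0.56 ± 0.17. Cyp27a1, which makes 27-hydroxycholesterol, went from 10.1 ± 1.06 to 3.47 ± 0.895 CPM (-1.51 ± 0.15, edgeR, adjusted p = 7.85e-12). On Day 5, 0 passed both thresholds against non-diabetic vehicle, and Cyp7b1 was higher against diabetic vehicle (0.52 ± 0.12, edgeR, adjusted p = 0.00236).

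Of 20 genes of fatty acid uptake, activation and storage in the table, 3 were higher and 4 lower on Day 1, beside 19.5% of all genes in either direction. Acsbg1 (0.69 ± 0.11, edgeR, adjusted p = 7.14e-07) and the lipid droplet proteins Plin2 (0.92 ± 0.17, adjusted p = 2.04e-05) and Hilpda (0.52 ± 0.13, adjusted p = 0.00157) were higher in every FGF1-treated mouse than in any vehicle-treated mouse. Acsl3 went from 414 ± 67.7 to 253 ± 36.8 CPM (-0.72 ± 0.09, edgeR, adjusted p = 6.17e-09), and Plin4 was lower at -1.03 ± 0.26. Mfsd2a, the endothelial lysophospholipid transporter, was lower on Day 1 (-0.70 ± 0.12, edgeR, adjusted p = 2.5e-06) and on Day 5 against non-diabetic (-0.53 ± 0.11, adjusted p = 0.00088) and diabetic vehicle (-0.73 ± 0.11, adjusted p = 3.03e-06). Plin4 was also lower on Day 5 against diabetic vehicle (-0.91 ± 0.23, edgeR, adjusted p = 0.00758).

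Up to 3 genes most like each of the 8 were taken by the correlation of log2(CPM + 0.5), with the mean of each day subtracted, over 47 libraries and 14122 genes. For Apoe they were Col11a2 (r = 0.90, rho = 0.80), Srebf1 (0.90, 0.82) and Col9a2 (0.88, 0.79), with GC contents of 64.3%, 58.4% and 62.7%. For Clu they were Sulf2 (r = 0.91, rho = 0.88), Pbxip1 (0.90, 0.90) and Inppl1 (0.90, 0.88), and for Lrp1 Pcnx3 (0.94, 0.83), Apc2 (0.93, 0.85) and Rai1 (0.93, 0.83), all of 56.3% GC or more. Apod was most like Bgn (r = 0.83, rho = 0.85) and Ctsl (0.81, 0.83) among the genes reported here. Abca1 was most like Selenop (r = 0.83, rho = 0.80), Scg3 (0.82, 0.76) and Enpp6 (0.81, 0.80), where Enpp6 itself stood at -1.43 on the log2 scale for FGF1 against vehicle on Day 1 and at 1.5 against non-diabetic vehicle on Day 5. Lcat was most like Sfxn5 (r = 0.86, rho = 0.83), Sirt2 (0.84, 0.82) and Abhd4 (0.84, 0.78). Abcg1 was most like Apba2 (r = 0.78, rho = 0.55), Asic1 (0.77, 0.61) and Elfn2 (0.77, 0.55), and Lpl like Ano3 (0.72, 0.63), Clic6 (0.70, 0.60) and Dkk3 (0.69, 0.49).

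The 8 genes lie on 7 chromosomes of GRCm38, with Lpl (chromosome 8, 68880491 to 68907448) and Lcat (chromosome 8, 105939551 to 105943382) on the same one, and 0 of them overlapped an exon of another annotated gene. Clu lies on chromosome 14 at 65968483 to 65981547 with 3437 bases of exon, Abca1 on chromosome 4 at 53030787 to 53159895 with 10363, Apoe on chromosome 7 at 19696109 to 19699188 with 2138 and Lcat has 1342.

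Promoter windows of 300 bases around the RefSeq gene start (GRCm38.p6) were held for Apoe, Apod, Abca1, Lcat and Lrp1, and Clu, Abcg1 and Lpl had no entry in the table used. Exact matches on both strands were sought for the liver X receptor repeat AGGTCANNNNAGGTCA, its single site AGGTCA, the STAT motif TTCNNNGAA, the AP-1 motif TGANTCA and the E-box CACGTG, which 0.0152%, 16.3%, 8.30%, 7.81% and 7.15% of all 32851 windows held. The repeat contains the single site. Abca1 held 1 E-box, Lrp1 held 1 STAT match, and Apoe (3 windows), Apod and Lcat held none of the 5. Sites that differ from these letters were not sought. The absence of a match, above all of the rare repeat, therefore does not show that a window lacks a binding site. The windows of Abca1 and Lcat, the 2 genes with an entry whose FGF1-treated and vehicle-treated mice did not overlap on Day 5, are printed 5′ to 3′ on the minus strand of chr4:53159846-53160145 and chr8:105943353-105943652, with the E-box in capitals.
Abca1: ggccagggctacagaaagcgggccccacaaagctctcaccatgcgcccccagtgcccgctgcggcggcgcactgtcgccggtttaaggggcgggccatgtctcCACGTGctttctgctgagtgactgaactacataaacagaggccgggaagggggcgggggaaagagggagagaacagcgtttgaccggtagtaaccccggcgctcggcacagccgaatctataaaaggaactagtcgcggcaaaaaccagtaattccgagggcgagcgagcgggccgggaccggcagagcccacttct
Lcat: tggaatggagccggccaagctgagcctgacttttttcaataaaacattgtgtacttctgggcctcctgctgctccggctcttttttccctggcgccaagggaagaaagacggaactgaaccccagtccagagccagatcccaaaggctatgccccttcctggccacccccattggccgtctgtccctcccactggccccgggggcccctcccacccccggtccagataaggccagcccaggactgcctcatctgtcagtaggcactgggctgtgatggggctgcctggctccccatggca
The capitals begin at base 104 of the Abca1 window, 147 bases before the gene start.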

How the data were processed

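The authors deposited 1 table of raw counts per gene and library, used here as given. The submitters' notes name STAR, GRCh38 and DESeq2 without versions, beside mouse samples, and the counting program was not given in the sources used here. Counts of all 47 libraries were fitted together in edgeR 4.0.16 (R 4.3.3), with TMM scaling, a mean for each of 7 groups and the quasi-likelihood F test, with Benjamini-Hochberg adjustment across the 14221 genes. The filter on low counts removed 0 genes. The SE of a log2 FC is its absolute value divided by the square root of F. The thresholds, adjusted p under 0.05 and absolute log2 FC above 0.5, are those of the study. DESeq2 1.42.0 and limma 3.58.1 served as alternatives, and tables were made in Python 3.11.15 with pandas 2.3.3. Transcript GC and exon length came from GENCODE vM21 (GRCm38), where 14180 of 14221 genes were found by name, and promoters from RefSeq. Of each list, comparison and direction, at most 3 genes past both thresholds with a mean of at least 1 CPM in a group were named, by smallest adjusted p, with the 8 genes, the 3 genes most like each and any marker. The 8 genes and all lists were chosen with earlier results of these data known. The alternatives on GC and on the 2 deepest libraries were chosen after seeing the data. The fit was tested on simulated data, whose outcome is not given here. Some genes that this rule for naming would take are not reported here.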

Additional observations from a re-analysis of the deposited data

Results flagged for a closer look

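Of 56 groups of a gene tested for a single far library, 2 held one, where about 1 in 20 would by chance. Lpl stood at 24.7 CPM in FGF1 replicate 5 of Day 42, with 6.25 to 8.81 in the other 4 mice. Lcat stood at 15.1 CPM in non-diabetic vehicle replicate 1 of Day 5, with 10.7 to 12.2 in the other 6. The FGF1 effect differed between days in 9 tests (edgeR). Between Days 5 and 1 the difference in log2 FC was 0.66 for Apoe (adjusted p = 0.0176), 1.23 for Abca1 (adjusted p = 2.51e-09) and 0.59 for Lcat (adjusted p = 0.0233). For Days 42 and 1 it was -0.77 for Clu (adjusted p = 2.8e-05), 0.51 for Abca1 (adjusted p = 0.0134) and 0.98 for Lpl (adjusted p = 0.0258). For Days 42 and 5 it was -0.83 for Clu (adjusted p = 0.000109), -0.72 for Abca1 (adjusted p = 0.0056) and -0.91 for Lcat (adjusted p = 0.0177). Without FGF1 replicate 5 of Day 42, the Lpl difference for Days 42 and 1 was 0.47 (edgeR, adjusted p = 0.199). Day and preparation cannot be told apart in the differences between days.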

How the results depend on the processing

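Of 896 values for 64 gene results under 25 settings, 843 kept their direction and their DEG status by both thresholds, 28 reversed direction, 8 became stronger and 17 weaker. The setting with no filter on low counts gave 64 of the 843 and could not differ, since the filter removed 0 genes. Some of the 843 crossed the adjusted p threshold alone, such as Apoe and Lcat on Day 1. No paired analysis was possible because the labels give no number that pairs mice across groups. The GC settings and the setting without the 2 deepest libraries were chosen after seeing the data, and the cause of the GC pattern was not tested. Single libraries were left out only among vehicle-treated mice of Day 1, all mice of Day 42 and FGF1 replicate 1 of Day 1, and the ranges below cover those alone. Of the 8 genes, 4 passed on Day 1 with no fold threshold (2 with it). Between Days 5 and 1 the count, 3, ranged from 1 (without vehicle replicate 4 of Day 1) to 3 with 1 of these left out and was 2 with limma-voom. For Days 42 and 1 the count, 3, ranged from 1 (without vehicle replicate 5 of Day 42 or replicate 2 of Day 1) to 3 with 1 of these left out, and was 2 with at least 10 counts or the GC covariate. Of the listed genes, 3 passed both thresholds on Day 5 against non-diabetic vehicle, but 7 with days fitted alone, 6 with merged vehicles, 6 with the GC covariate and 5 with the GC curve. Against diabetic vehicle 7 passed, and 4 with at least 10 counts in every library. Over all genes, the 219 DEGs against non-diabetic vehicle (186 higher) were 370 with days alone, 372 with merged vehicles, 140 with at least 10 counts (10973 genes tested) and 207 with limma-voom (140 higher). The 406 against diabetic vehicle (335 higher) were 219 with at least 10 counts and 415 with limma-voom (273 higher), and the 2776 of Day 1 were 1582 with at least 10 counts. Directions reversed only near 0. Abcg1 on Day 1 ranged from -0.06 to 0.19 with 1 library left out and was -0.02 with the GC curve. Against non-diabetic vehicle it was 0.01 under limma, days alone and merged vehicles and 0.02 with at least 10 counts. Between vehicle sets Apoe was -0.00 (limma) and -0.01 (GC curve), and Lpl 0.02 (limma) and 0.01 (GC curve). With 1 library left out on Day 42, Clu ranged from -0.03 to 0.14, Abca1 from -0.07 to 0.05, Lcat from -0.02 to 0.18 and Lrp1 from -0.18 to 0.03. Likewise for Days 5 and 1, Clu ranged from -0.04 to 0.16 and was -0.14 under limma, and Abcg1 ranged from -0.19 to 0.06 and was 0.01 with the GC curve. For Days 42 and 1 Abcg1 ranged from -0.07 to 0.19, and for Days 42 and 5 Lrp1 ranged from -0.19 to 0.02. The cause of these reversals was not tested.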
